A study of Mus musculus with 4 samples.

Results

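The authors' gene tables pair 9 genes of macrophage identity and immune signalling with a peak of H3K9ac or H3K27me3 that differed between aorta macrophages of mice exposed to chronic intermittent hypoxia (CIH) and to room air (RA). The genes were Ptprc, Spic, Fcgr3, Fgr, Mertk, Ptafr, Lifr, Il22ra2 and Isg15. The H3K9ac table was held for 742 of its 2932 rows only. All peaks that the rows held pair with one of these genes were taken and matched by peak name to the deposited lists. This gave 9 peaks, 5 of H3K9ac and 4 of H3K27me3, among 21089 deposited differential peaks of both marks. The pairing is that of the tables and, as given below, a peak can lie at the promoter of another gene. Each gene had 1 peak, and no gene had a peak of both marks in the rows held.

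The mice were C57BL/6J, with no transgene or deletion in either group. CIH lasted 20 weeks, during which 90 seconds of 6.1% oxygen alternated with 90 seconds of 21% oxygen in the daylight hours, while RA mice stayed at 21%. The cells were selected on magnetic beads for CD11b, a surface integrin that macrophages share with monocytes and neutrophils, and chromatin was precipitated with an antibody to each mark and sequenced (ChIP-Seq). There were 4 libraries, with each mark and exposure read once and no input, so no result below has a replicate error, and no test of the exposure can be made. The study had several animals per exposure, but how many went into each library is not given in the sources used here.

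The deposited lists give position and direction for each peak, on the mouse build mm9 and in steps of 50 bp, and the same score of 1000 throughout. They hold no counts or totals, so they do not give the depth behind a peak or the size of a difference, and the counts of the authors' tables were not used here. The study's sequencing yield was larger for CIH than for RA for both marks, and its part in the directions below was not tested. None of 22 marker genes of macrophages and of other cells of the aorta or of a CD11b selection had a peak in the gene tables held, and the files contain no expression, so the labelled cell type could not be checked.

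H3K9ac is an acetylation of histone H3 found at active promoters and enhancers, while H3K27me3 is a trimethylation laid down by Polycomb complexes at silent genes. In the macrophage, the ETS family factors PU.1 and SPI-C act on lineage genes. Receptors for immunoglobulin, dying cells and lipid mediators signal from the surface through kinases such as FGR, and interferons induce the small modifier ISG15.

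All 4 H3K27me3 peaks were higher in CIH, whereas 36.3% of the 146 peaks of that list were higher in CIH. This direction is that of the side column of the authors' gene table, which puts more H3K27me3 peaks in RA than in CIH, while the study's text counts more in CIH. With the H3K27me3 sides read the other way, none of the 4 would be higher in CIH, beside 63.7% of the list. Of the 5 H3K9ac peaks, only that of Fgr was higher in CIH, against 45.4% of the 20943 peaks of the list, and the peaks of Fcgr3, Mertk, Ptafr and Isg15 were higher in RA, against 54.6%. All 5 were at least 450 bp wide, and the share higher in RA was 45.6% over H3K9ac peaks of at least 300 bp and 51.1% over those of the gene table held. The counts are small and describe the peaks that were listed as differential from 1 pair of libraries per mark. The genes were chosen with these directions known, so nothing is drawn from the counts beyond the values themselves.

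The sequences of the 4 H3K27me3 peaks are shown because their letters differ from those of the H3K9ac peaks, with fewer CpG per base than any of the 5. This holds for the marks as a whole, with a median of 0.667 CpG per 100 bases for the H3K27me3 peaks and 3.51 for the H3K9ac peaks of the gene tables held. They are given 5′ to 3′ on the plus strand of mm9. In the first 3, capitals mark ACGTG or its complement CACGT, the core of the hypoxia response element, and in the last they mark the bases that the authors' table gives as N. The Ptprc sequence covers bases 1 to 300 of 350, chr1:140056301-140056600, and the others are whole: chr10:88051251-88051500 for Spic, chr10:19424501-19424800 for Il22ra2 and chr15:7036301-7036600 for Lifr.
Ptprc: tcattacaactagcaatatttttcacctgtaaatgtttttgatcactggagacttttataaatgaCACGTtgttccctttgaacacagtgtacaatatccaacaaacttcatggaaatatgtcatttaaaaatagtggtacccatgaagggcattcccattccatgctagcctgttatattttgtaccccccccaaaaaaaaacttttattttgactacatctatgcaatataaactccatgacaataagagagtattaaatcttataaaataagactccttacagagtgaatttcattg
Spic: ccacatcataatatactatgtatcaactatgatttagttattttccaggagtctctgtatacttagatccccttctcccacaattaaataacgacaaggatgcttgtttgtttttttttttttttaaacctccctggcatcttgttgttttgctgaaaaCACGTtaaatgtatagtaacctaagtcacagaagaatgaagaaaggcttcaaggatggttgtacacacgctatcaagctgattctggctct
Il22ra2: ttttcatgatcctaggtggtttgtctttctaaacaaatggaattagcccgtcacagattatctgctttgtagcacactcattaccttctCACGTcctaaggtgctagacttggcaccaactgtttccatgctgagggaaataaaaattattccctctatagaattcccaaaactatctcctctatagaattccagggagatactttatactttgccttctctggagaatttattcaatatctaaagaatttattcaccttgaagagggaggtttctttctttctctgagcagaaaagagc
Lifr: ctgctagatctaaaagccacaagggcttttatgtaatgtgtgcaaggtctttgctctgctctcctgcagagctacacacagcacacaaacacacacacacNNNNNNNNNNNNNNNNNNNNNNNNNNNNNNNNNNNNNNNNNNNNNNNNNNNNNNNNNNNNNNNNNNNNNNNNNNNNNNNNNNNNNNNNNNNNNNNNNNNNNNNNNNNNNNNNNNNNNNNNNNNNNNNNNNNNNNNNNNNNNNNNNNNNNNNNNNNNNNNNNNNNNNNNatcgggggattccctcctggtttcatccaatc

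Ptprc encodes CD45, the tyrosine phosphatase found on all leukocytes. Its H3K27me3 peak lies at chr1:140056301-140056650 and is 350 bp wide, against a median of 300 bp for the peaks of the list higher in CIH. Of these, 73.6% were narrower, 1.89% were wider, and the others had the same width. The Ptprc peak is also paired with the predicted gene Gm28556. Its GC content was 33.1%, against a median of 38.0% for the 40 peaks of the gene table higher in CIH. All 117 peaks of that table had a median of 43.9%, and 2.56% of them were lower than the Ptprc peak. No other deposited peak of either mark lay within 50 kb, and the nearest H3K9ac peak, at 77050 bp, was also higher in CIH.

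Spic encodes a PU.1-related transcription factor required for the red pulp macrophages of the spleen. The Spic peak, at chr10:88051251-88051500, was 250 bp wide, and no peak of the list higher in CIH was narrower. Of these peaks, 58.5% were wider, and the others had the same width. The Spic peak held 3 CpG in 250 bases, and its GC content was 35.6%, beside the median of 38.0% for the table peaks higher in CIH. It too stood alone within 50 kb. The nearest H3K9ac peaks were 77800 and 84700 bp away and were both higher in RA, the farther one 1700 bp wide.

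Lifr encodes the receptor subunit for leukaemia inhibitory factor, which signals together with gp130. Its H3K27me3 peak, at chr15:7036301-7036600, was the only one of the 4 to share bases with an H3K9ac peak, compared with 22.6% of the H3K27me3 list and 54.7% of its 53 peaks higher in CIH. The H3K9ac peak, at chr15:7036251-7037050, was 800 bp wide, was also higher in CIH, and covered all 300 bp of the H3K27me3 peak. Thus, both marks were listed as higher in CIH at the same place. Among the 53 H3K27me3 peaks higher in CIH, 25 lay wholly inside an H3K9ac peak. Of the 300 letters given for the Lifr peak, 168 were N, next to a run of CA repeats. Any N was found in 20.5% of the H3K27me3 peaks in the table, and 6 of 117 had as many N as other letters or more. Of those 6, 5 were among the 40 peaks higher in CIH, where 30.0% had any N. Over the 132 remaining letters of the Lifr peak the GC content was 48.5%, against 21.3% with the N counted. Any role of the masked repeat in the signal at this place was not tested.

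Il22ra2 encodes the soluble IL-22 binding protein, which keeps the cytokine from its receptor. Its peak, at chr10:19424501-19424800, was 300 bp wide, with a GC content of 38.0%, equal to the median of 38.0% of the 40 peaks of the table higher in CIH. It was the most isolated of the 9 peaks, with no other deposited peak of either mark within 100 kb and the nearest H3K9ac peak, higher in CIH, at 112100 bp. Isolation was not rare for the mark, as 37.0% of the H3K27me3 peaks had no other deposited peak within 50 kb.

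**Figure D1:**
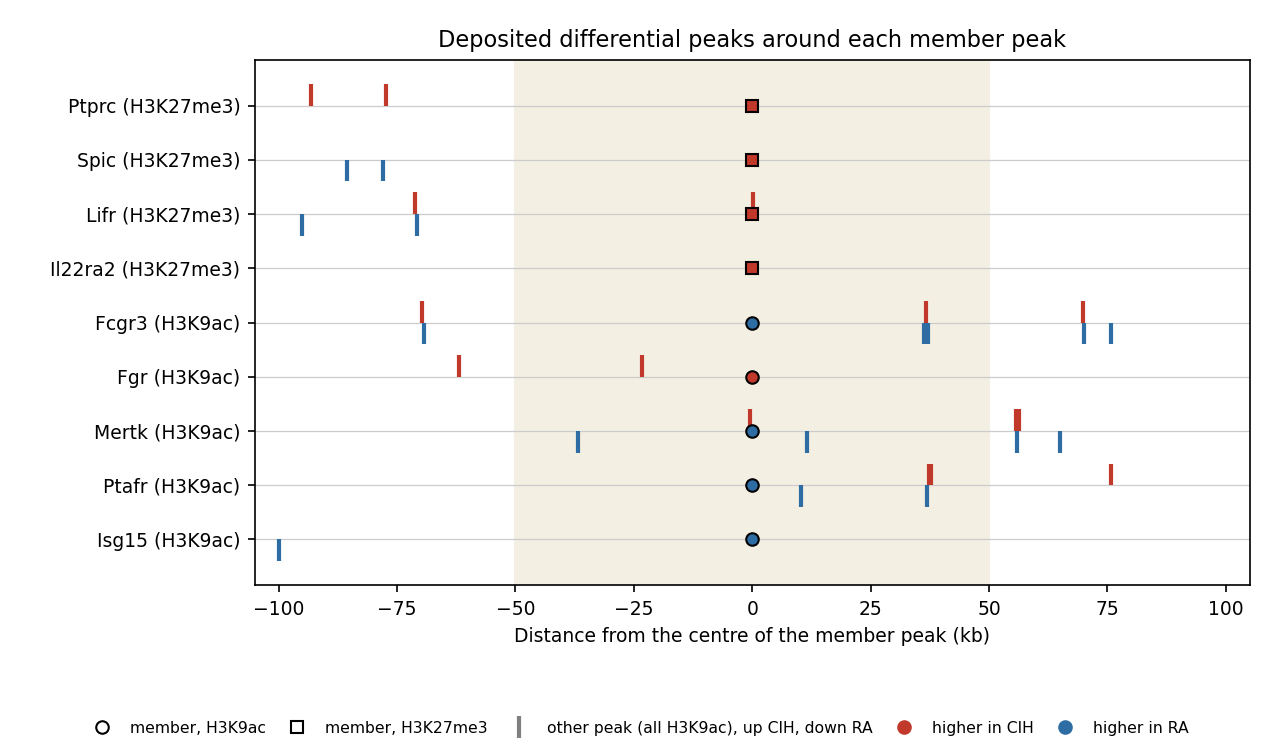
Deposited differential peaks around each of the 9 member peaks, with the distance from the centre of the member peak in kb on the horizontal axis and 1 row per gene. Squares are H3K27me3 and circles H3K9ac member peaks, ticks above the line are other H3K9ac peaks higher in CIH (red) and ticks below are peaks higher in RA (blue), and the shaded band is 50 kb to either side. Within the band the Ptafr peak has 4 neighbours, the Mertk and Fcgr3 peaks 3 each, and the Ptprc, Spic, Il22ra2 and Isg15 peaks none.

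The peaks of the members were searched for the promoters of the genes, using the RefSeq windows of the build GRCm38.p6, which run from 250 bases before to 50 bases after a gene's start. A window was taken as present when at least 25 bases in a row were identical. Windows were available for 8 of the 9 genes. Among the 483 H3K9ac peaks of the gene table held, 31.7% shared letters with the promoter of some gene on the same chromosome, and of the 425 that are paired with a gene that has a window, 23.5% shared letters with that gene. Among the H3K27me3 peaks of the table, 4.27% of 117 shared letters with any promoter, and 0 of 97 with that of a paired gene. None of the 8 peaks whose gene has a window shared letters with the promoter of that gene, but 3 of the H3K9ac peaks shared letters with the promoter of another gene. For the H3K9ac peaks only the first 399 letters are held, so a promoter in the rest of a peak would not be seen.

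The Fcgr3 and Isg15 stretches shown next are those identical to another gene's promoter, upstream of that gene's start. Capitals mark ACGTG in the first and the interferon regulatory factor (IRF) letters, GAAANNGAA or their complement, in the second. The Ptafr stretch is the start of its peak, with no capitals, and the Fgr stretch shows the PU.1 core GAGGAA, here as its complement TTCCTC, in capitals. All are on the plus strand of mm9, at chr1:173043867-173044116, chr4:155577143-155577343, chr4:132091551-132091579 and chr4:132501798-132501827.
Fcgr3: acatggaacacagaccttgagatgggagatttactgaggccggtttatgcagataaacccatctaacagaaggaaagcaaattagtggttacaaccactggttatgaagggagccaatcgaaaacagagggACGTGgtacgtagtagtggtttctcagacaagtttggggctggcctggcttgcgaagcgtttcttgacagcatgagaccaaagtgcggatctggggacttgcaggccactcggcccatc
Isg15: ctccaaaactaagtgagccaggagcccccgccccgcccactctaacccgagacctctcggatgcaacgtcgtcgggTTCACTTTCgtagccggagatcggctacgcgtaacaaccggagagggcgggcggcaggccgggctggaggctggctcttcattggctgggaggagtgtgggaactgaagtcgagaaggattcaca
Ptafr: ggaggcatttatgaccttctacagtgagg
Fgr: ctctgaaggaccTTCCTCctgctctccttc

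Fcgr3 encodes a low-affinity activating receptor for IgG. Its H3K9ac peak, at chr1:173043851-173044300, was higher in RA and 450 bp wide, the median of the list, whereas the median of peaks higher in RA was 300 bp. The table pairs it with 1700009P17Rik as well, the older symbol of Cfap126, a gene of the motile cilium. All 300 letters of a Cfap126 promoter window were found in bases 17 to 316 of the peak, with the start of Cfap126 at base 267. In GRCm38.p6 this window is 54.1 kb from the promoter windows of Fcgr3. There were 3 other H3K9ac peaks within 50 kb, all in 1 chain of touching peaks that began 36000 bp away, higher in RA over 250 bp, in CIH over 600 bp and in RA over 150 bp.

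Fgr encodes a Src family kinase of myeloid cells that acts downstream of Fc receptors and integrins. The Fgr peak was the only H3K9ac peak of the 5 that was higher in CIH, and with 1650 bp it was the widest of the 9. In the deposited list, 1.96% of all H3K9ac peaks and 3.99% of those higher in CIH were wider. The gene table, cut to peaks with many reads, held wider peaks as well. The Fgr peak lies at chr4:132501451-132503100 and is paired with Fam76a too. The 1 other peak within 50 kb lay at a distance of 22350 bp and had the same direction, as had the next at 60650 bp. In the 399 letters held, 24 were N and the GC content of the rest was 53.6%, the same as the median of 53.6% of the table. With 1.87 CpG per 100 bases it was the poorest in CpG of the 5 H3K9ac peaks.

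Mertk encodes a TAM family receptor tyrosine kinase through which macrophages engulf apoptotic cells. The Mertk peak, at chr2:128524901-128525650, was higher in RA and 750 bp wide, wider than 89.5% of the peaks higher in RA, and is paired with no other gene. It directly touched an H3K9ac peak of 250 bp, at chr2:128524651-128524900, that was higher in CIH. The direction of the H3K9ac difference therefore changed at 1 border within 1 stretch of 1000 bp. It was the only member peak to touch another peak, while 36.2% of the H3K9ac list did. Both other peaks within 50 kb, at 11100 and 36300 bp, were higher in RA.

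Ptafr encodes the G protein-coupled receptor for platelet-activating factor, a lipid mediator. The Ptafr peak, at chr4:132091551-132092150, was higher in RA, 600 bp wide and the richest in CpG, with 10.0 per 100 bases and a GC content of 68.4%, which 11.6% of the table exceeded. It is also paired with Dnajc8, a gene for a DnaJ family co-chaperone. Its first 29 letters were identical to the upstream end of the promoter window of Atpif1, which encodes the inhibitor of the mitochondrial ATP synthase. In GRCm38.p6 there are 76 bases between these letters and the start of Dnajc8, and they are 28.2 kb from the promoter window of Ptafr. Within 50 kb there were 4 other H3K9ac peaks, the nearest, at 9850 bp, higher in RA, then 1 of 150 bp higher in RA that touched 1 of 500 bp higher in CIH, and 1 of 400 bp higher in CIH. Of the H3K9ac list, 19.2% of peaks had at least 4.

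Isg15 encodes a ubiquitin-like modifier that is induced by type I interferon. The Isg15 peak, at chr4:155576951-155578150, was higher in RA and 1200 bp wide. Of the deposited peaks higher in RA, 1.44% were wider. Wider peaks were common in the gene table held, which was cut to peaks with many reads. The Isg15 peak is paired with no other gene. From base 193 to base 393 its letters were identical to the upstream part of the promoter window of AW011738, a long non-coding RNA gene, whose start would be base 443 and so lies beyond the letters held. In GRCm38.p6 the first of these bases is 1965 bp from the promoter window of Isg15. No other deposited peak lay within 50 kb, as for 24.7% of the H3K9ac list, and the nearest, at 99200 bp, was higher in RA as well.

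**Figure D2:**
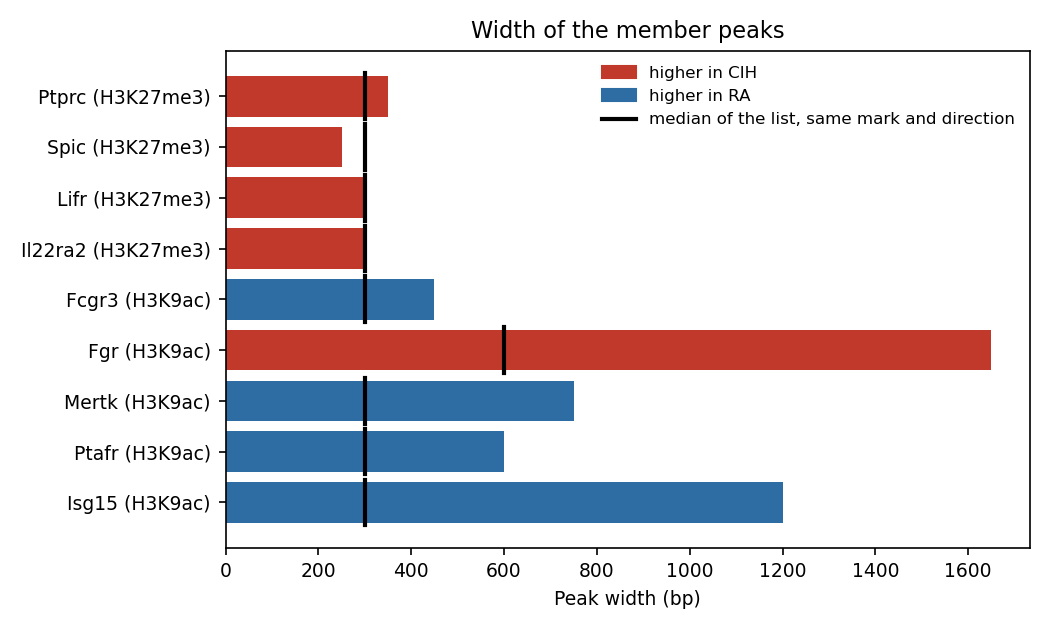
Width of the 9 member peaks on a horizontal axis in bp. Red bars stand for higher in CIH and blue bars for higher in RA, with a black line at the median width of all peaks of the same mark and direction. The bars of the 5 H3K9ac peaks, from 450 to 1650 bp, all pass their line, and those of the 4 H3K27me3 peaks, from 250 to 350 bp, lie close to it.

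Every H3K9ac member peak was wider than the median of its direction, which was 600 bp for peaks higher in CIH and 300 bp for peaks higher in RA. The gene table that named the members was cut by the authors to peaks with many reads, so this width is not independent of how they were chosen. Most peaks of the table held were wider than both medians. The Fcgr3, Ptafr and Mertk peaks were narrower than most peaks of that table, and it also held peaks wider than those of Isg15 and Fgr. Around the 5 peaks there were 11 other H3K9ac peaks within 50 kb, 6 higher in RA and 5 in CIH, and 7 of them had the direction of the member peak. The share of neighbours with the same direction over the whole list is not given here. Some of the 11 touch each other, so nothing is drawn from their directions. A peak of the H3K9ac list had a median of 2 other deposited peaks within 50 kb. No other H3K27me3 peak lay within 50 kb of any of the 9, and none of the 12 neighbours in all is paired with a gene in the tables held. Both counts rest on short lists, as there are 146 H3K27me3 peaks in all. The gene table held names 483 of the 20943 H3K9ac peaks.

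**Figure D3:**
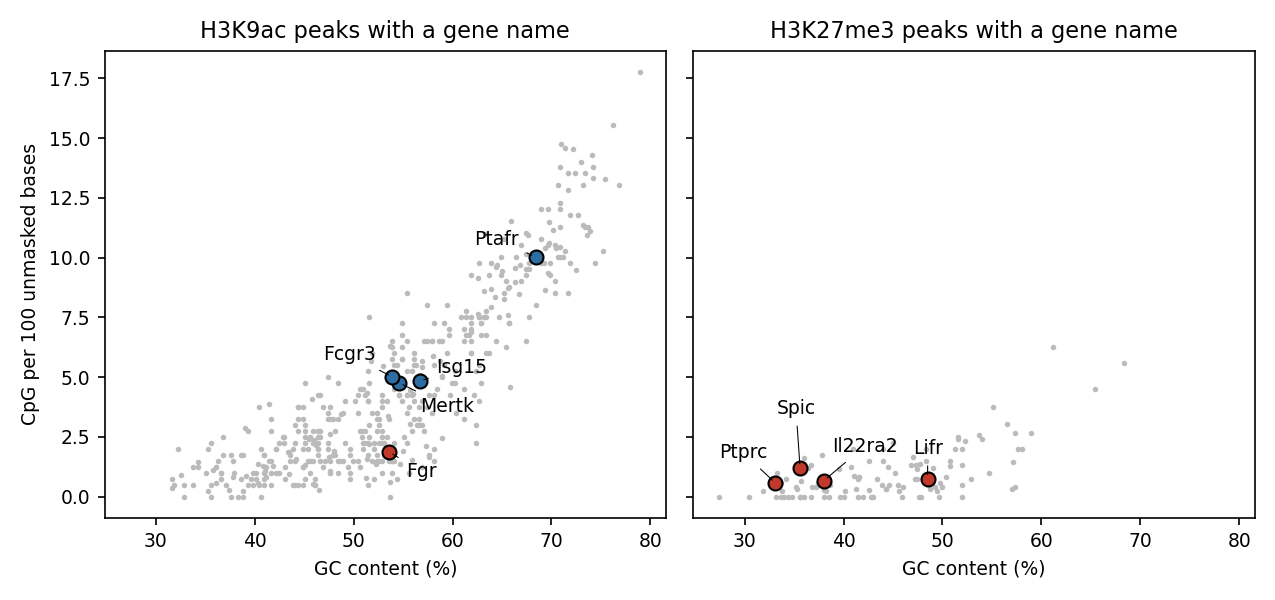
GC content in percent (horizontal axis) and CpG per 100 unmasked bases (vertical axis) of the peaks with a gene name in the tables held, for H3K9ac on the left and H3K27me3 on the right, with grey points for all peaks and large points for the members, red where higher in CIH and blue where higher in RA. The 4 H3K27me3 members lie at or under 1.2 CpG per 100 bases, and the H3K9ac members run from 1.87 for Fgr to 10.0 for Ptafr.

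The letters of the peaks were searched on both strands for the cores of factors that act in macrophages or in hypoxia. They were GAGGAA for PU.1, GGAA for the ETS family, TGANTCA for AP-1, GAAANNGAA for IRF, TTGCNNAA for C/EBP and ACGTG for the hypoxia response element. GGAA is part of GAGGAA, and ACGTG is also part of many E-boxes, so these matches overlap. Each match describes letters and not a bound site.

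The hypoxia response core ACGTG was found once each in the H3K27me3 peaks of Ptprc, Spic and Il22ra2, at bases 66 to 70, 160 to 164 and 90 to 94, and not in the unmasked letters of Lifr. Over windows of the same length it occurred in 16.7%, 14.3% and 17.3% of the H3K27me3 peaks of the table. Among the H3K9ac peaks, Mertk and Fcgr3 held it, at bases 31 to 35 and 148 to 152, and 28.0% of the table did over 399 bases. Motif searches were made for 9 chosen peaks, and no test was run on them.

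The ETS core GGAA was present in all 9 peaks, from 1 match in Spic and Lifr to 8 in Fgr, as it was in 98.3% of the H3K9ac peaks of the table over 399 bases and 94.6% of the H3K27me3 peaks over 250 bases. The longer PU.1 core occurred only in the Fgr peak, at bases 360 to 365, and in 34.3% of the table. The IRF letters were found only in the Isg15 peak, at bases 269 to 277, within the stretch shared with the AW011738 promoter, and in 12.4% of the table. The AP-1 letters were found only in the Fcgr3 peak, at bases 379 to 385, against 9.89% of the table. Of the H3K27me3 peaks, only that of Spic held the C/EBP letters, against 11.6% of the table over 250 bases. They lay at bases 150 to 157, just before its ACGTG at bases 160 to 164.

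The pathways of these genes were followed with 6 lists that together hold 104 genes other than the 9. Of those, Jak1 and Ube2l6 had a peak in the tables held, both H3K9ac and higher in RA, and the other 102 had none. The H3K9ac table is held whole for chromosomes 2, 3, 4 and 19 only, where 26 of the 104 genes lie, so a gene elsewhere may have a peak in the rest of it. The authors also cut this table to peaks with many reads, so a gene without a peak in it can still have a deposited one. On these chromosomes, 7.69% of the 26 genes had an H3K9ac peak in the table, beside 10.2% of the 4798 protein-coding genes of RefSeq. Over all 483 H3K9ac peaks of the table held, on any chromosome, 51.1% were higher in RA. Ube2l6 encodes the E2 enzyme that passes ISG15 to its targets. Its peak, at chr2:84614451-84615150, was 700 bp wide, is also paired with Serping1, and had the same direction as that of Isg15. Jak1 encodes the kinase used by gp130, interferon and IL-22 receptors. The Jak1 peak, at chr4:100936751-100937550, was 800 bp wide and touched an H3K9ac peak higher in CIH, as the Mertk peak did.

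By list, the 26 genes of leukocyte and macrophage identity had the H3K27me3 peaks of Ptprc and Spic and no H3K9ac peak in the rows held. On the chromosomes held whole lie 6 of these genes. A share of all genes with an H3K27me3 peak is not given here. The 18 genes of Fc receptors and Src family kinases had the H3K9ac peaks of Fcgr3, higher in RA, and Fgr, higher in CIH, with 7 genes on those chromosomes. Of the 14 genes of TAM receptors and uptake of dying cells, only Mertk had a peak in the rows held, with 3 genes on those chromosomes. Of the 13 genes of lipid mediator receptors only Ptafr had one, with 2 genes there. Most genes of these lists lie elsewhere, so their H3K9ac peaks could be missed. The 21 genes of the LIF, IL-6 and IL-22 receptor family had the H3K27me3 peaks of Lifr and Il22ra2, higher in CIH, and the H3K9ac peak of Jak1. On the chromosomes held whole lie 5 of these genes. The 22 genes of ISG15 and the interferon response had the H3K9ac peaks of Isg15 and Ube2l6, both higher in RA, with 7 genes on those chromosomes. Apart from Jak1 and Ube2l6, every gene with a peak in these lists is a member, chosen for having one. The lists too were written with earlier results known, so the counts by list say nothing about a pathway.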

How the data were processed

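Aorta macrophages of CIH and RA mice were profiled for H3K9ac and H3K27me3 with 1 library per mark and exposure and no input. The submitters' processing notes name mm9, MACS2 2.1.0 and bedtools 2.23.0, and for trimming and alignment Trimmomatic 0.32 and BWA 0.7.12, beside Picard 1.121 and SAMtools 1.2. The authors removed low complexity and blacklisted regions, combined more than 1 analysis tool, and deposited 1 list of differential peaks per mark, whose score is 1000 in every row and was not used. With no input, places where reads pile up whatever the antibody cannot be told apart from enriched ones.

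A minus sign in a list was taken to mean higher in CIH and a plus sign higher in RA, as the side column of the authors' gene tables has it for all 483 H3K9ac and 117 H3K27me3 peaks held, which also matched in name and position. That column names more H3K27me3 peaks in RA, while the study's text counts more in CIH, and the column was followed. From these tables only peak names, sides, gene names and sequences were taken, and their counts and p-values were not used. The H3K9ac table is held for 742 of 2932 rows in order of peak name. Overlap meant at least 1 bp and distances run from edge to edge. Promoters came from RefSeq (GRCm38.p6) and were matched by letters, with no conversion of coordinates. Overlap, distance and letter searches were run with Python 3.11.15, numpy 2.4.6 and pandas 2.3.3, were tested on simulated data, and intervals came from scipy 1.17.1. The genes described are the 9 members, other genes paired with their peaks, and genes of 6 lists with a peak. Members and lists were chosen with earlier results of these data known. No statistical test was made.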

Additional observations from a re-analysis of the deposited data

How the results depend on the processing

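The positions of the 9 peaks come from the lists, and their directions rest on the side column of the authors' gene tables. The number of other deposited peaks near them was 12 within 50 kb, 3 within 10 kb and 31 within 100 kb, and 8 within 50 kb when only peaks of at least 300 bp were counted. The share of the H3K9ac list higher in CIH was 45.4% (exact Clopper-Pearson 95% interval 44.7 to 46.0%), 54.4% over peaks of at least 300 bp and 48.9% over the peaks of the gene table held, so the share higher in RA, with which 4 of the 5 H3K9ac members are set side by side, was above or below an even split depending on width. For H3K27me3 the share was 36.3% (28.5 to 44.7%), 29.8% and 34.2%. The pooled GC content of the H3K27me3 members was 37.1% without N and 31.9% with N counted, all of it from the Lifr peak, and that of the H3K9ac members was 57.5% and 56.6%. Motif matches other than CpG were 28 in the H3K9ac members over all letters held and 11 in the first 250 bases, fewer because fewer letters were searched, and 17 and 15 in the H3K27me3 members. The Lifr overlap held when 50% of the peak had to be covered. Intervals cover counting error only and treat the peaks as independent, while 36.2% of the H3K9ac list touched another peak. No paired analysis was possible because there is 1 library per mark and exposure. The lists hold no counts and those of the authors' tables were not used, so weak and strong differences are not told apart here.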
